A study of Homo sapiens with 60 samples.

Results

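Saengmaek-san at 500 µg/mL was set against Guibi-tang at 500 µg/mL in A549 cells, an established human line from a lung adenocarcinoma. Both are traditional Korean herbal decoctions, here given as hot-water extracts. The comparison took 6 of the 60 libraries of the series, 3 of Saengmaek-san 500 and 3 of Guibi-tang 500, chosen by their labels and not by any measured value. The other libraries used were the same decoctions at 100 and 20 µg/mL, with 3 libraries a dose, and 3 vehicle libraries. All groups were A549 cells harvested after 24 h and differed, per the treatment labels, only in what was added. The vehicle libraries carry names of another set than those of the decoctions. The vehicle was DMSO, given as 0.1% on the samples and as 2% in the description of the series. That description also states that an extract with an IC20 (the dose that inhibits by 20%) under 500 µg/mL was given at that dose and at dilutions of it. The labels print 500, 100 and 20 for both decoctions, so equal labelled doses may not be equal weights of extract. The 2 decoctions also differ in their herbs, so no difference can be tied to a single plant. One line of cancer cells in culture has no blood vessels and no immune cells.

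Saengmaek-san is a short formula of ginseng root, Liriope or Ophiopogon tuber and Schisandra fruit, while Guibi-tang combines ginseng with many other herbs. Epithelial cells answer inflammatory signals through NF-kB, a family of transcription factors held in the cytoplasm by inhibitor proteins. Once freed, NF-kB turns on chemokines such as CXCL8, which draw neutrophils to the airway, along with its own inhibitors. A separate route, through TFEB and related factors, turns on genes of lysosomes and autophagy, the pathways by which a cell degrades its own contents. Its best known DNA element is an E-box inside a longer palindrome, called CLEAR.

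Promoters of 7 genes that were lower in Saengmaek-san are shown first, chosen because each held 1 of 2 kinds of short sequence. Those of LCN2, CFB, SQSTM1, FLCN, CTSL and KRT4, described further on, held neither in the same window. All are RefSeq sequences of GRCh38.p14, 300 bases around the annotated start, written 5′ to 3′ on the strand of the gene. Capitals mark matches, on either strand, to GGNNTTTCC, a core of the sites that NF-kB binds. CXCL1 lies at chr4:73869143-73869442 and CXCL8 at chr4:73740319-73740618, both on the plus strand. CXCL2 lies at chr4:74099146-74099445 and CXCL5 at chr4:73998628-73998927, both on the minus strand.
CXCL1: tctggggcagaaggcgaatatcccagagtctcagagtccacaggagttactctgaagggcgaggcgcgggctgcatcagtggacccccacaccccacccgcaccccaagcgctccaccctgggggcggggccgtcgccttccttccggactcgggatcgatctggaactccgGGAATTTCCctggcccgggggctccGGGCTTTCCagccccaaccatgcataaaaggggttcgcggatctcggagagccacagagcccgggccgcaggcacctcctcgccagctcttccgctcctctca
CXCL8: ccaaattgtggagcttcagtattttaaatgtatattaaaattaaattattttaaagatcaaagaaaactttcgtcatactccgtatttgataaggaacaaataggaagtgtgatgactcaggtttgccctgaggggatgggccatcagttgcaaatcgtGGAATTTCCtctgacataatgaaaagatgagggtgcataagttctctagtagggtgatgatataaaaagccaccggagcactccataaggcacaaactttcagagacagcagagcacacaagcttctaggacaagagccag
CXCL2: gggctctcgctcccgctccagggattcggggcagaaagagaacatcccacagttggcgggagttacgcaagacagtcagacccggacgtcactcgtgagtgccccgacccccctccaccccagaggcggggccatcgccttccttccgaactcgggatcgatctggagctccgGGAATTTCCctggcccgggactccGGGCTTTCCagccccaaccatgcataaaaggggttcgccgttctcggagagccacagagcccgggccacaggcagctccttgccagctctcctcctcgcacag
CXCL5: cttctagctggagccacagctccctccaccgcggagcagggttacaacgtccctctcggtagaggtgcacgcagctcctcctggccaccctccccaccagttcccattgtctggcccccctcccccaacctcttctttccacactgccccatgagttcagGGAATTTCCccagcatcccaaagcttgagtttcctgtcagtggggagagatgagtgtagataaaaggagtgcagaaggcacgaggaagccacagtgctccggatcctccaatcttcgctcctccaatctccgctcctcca
The 4 promoters each held GGAATTTCC, which began 78 bases before the start in CXCL1, 91 in CXCL8, 77 in CXCL2 and 90 in CXCL5. CXCL1 and CXCL2 also shared GGGCTTTCC, which began 53 bases before the start in both. A match to GGNNTTTCC was present in 6 of the 7 neutrophil chemokine promoters and in 2198 of all 35116 promoters of the table (6.26%). A match describes these letters and is not a measured binding site.

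The next 3 promoters belong to NEU1, the lysosomal sialidase, FNIP1, a partner of folliculin, and RRAGC, a small GTPase of the lysosome surface. Capitals mark TCACGTG on either strand, the E-box part of the CLEAR element. NEU1 lies at chr6:31862772-31863071, FNIP1 at chr5:131796968-131797267 and RRAGC at chr1:38859723-38860022, all on the minus strand.
NEU1: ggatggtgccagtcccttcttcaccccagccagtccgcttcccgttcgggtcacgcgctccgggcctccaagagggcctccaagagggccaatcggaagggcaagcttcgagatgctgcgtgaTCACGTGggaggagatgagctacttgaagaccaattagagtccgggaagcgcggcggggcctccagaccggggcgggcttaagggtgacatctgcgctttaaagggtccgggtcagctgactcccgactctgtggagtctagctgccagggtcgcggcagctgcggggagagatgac
FNIP1: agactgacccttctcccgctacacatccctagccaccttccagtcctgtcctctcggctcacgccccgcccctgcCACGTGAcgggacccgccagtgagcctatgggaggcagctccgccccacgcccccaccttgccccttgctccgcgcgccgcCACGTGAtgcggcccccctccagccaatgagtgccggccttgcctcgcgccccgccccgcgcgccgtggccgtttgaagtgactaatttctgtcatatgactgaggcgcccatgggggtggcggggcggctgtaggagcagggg
RRAGC: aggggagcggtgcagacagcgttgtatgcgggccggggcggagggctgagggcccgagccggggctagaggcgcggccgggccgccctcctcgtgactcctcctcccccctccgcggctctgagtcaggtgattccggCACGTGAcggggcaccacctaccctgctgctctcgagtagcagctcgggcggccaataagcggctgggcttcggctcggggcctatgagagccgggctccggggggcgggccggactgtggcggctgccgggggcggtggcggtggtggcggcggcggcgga
The match began 127 bases before the start in NEU1 and 112 in RRAGC, while FNIP1 had 2 matches, 175 and 94 bases before it. Of the 38 genes on the list of lysosome and TFEB-type genes, 24 had a promoter in the table and 9 of these held the match. Over all promoters it was 1303 of 35116 (3.71%). The list was drawn up as targets of TFEB-type factors, so its share of matches is no independent result. None of the 7 neutrophil chemokine promoters held TCACGTG.

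The 6 libraries held 19586209 to 30250823 counts. Levels are given in CPM, counts scaled to the library total, and 1 CPM stood for roughly 20 to 30 reads. Mitochondrially encoded genes took 11.6 to 18.02% of the counts in Saengmaek-san 500 and 10.8 to 16.8% in Guibi-tang 500 (exact two-sided permutation p = 0.7, where 3 against 3 cannot go below 0.1). In both groups replicate 3 was the high one. That share was 10.7 to 13.9% in the first 31 libraries by name and 12.9 to 22.2% in the later 29, and replicate 3 of both groups at 500 falls among the later ones. The labels do not say whether replicates came from separate cultures, so a p-value here reflects no more than how far these samples spread, which may be technical. Markers of A549 cells were present, as KRT8 stood at 2740 to 3570 CPM and ALDH1A1 at 5020 to 6260 CPM over the 6 libraries. Endothelial markers summed to 0.1 to 0.23 CPM, with KDR at 0 in all 6. The leukocyte list rested on CD68, which lysosomes of other cells also carry, since PTPRC was at 0 in 5 of the 6 libraries and CD3E at 0 in all 6.

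Saengmaek-san 500 had lower levels than Guibi-tang 500 of neutrophil chemokines, other NF-kB targets, the complement gene C3 and a set of lysosomal genes, together with the autophagy receptor SQSTM1. It had higher levels of fewer genes, by smaller folds, among them TPPP3, KRT4, H19, ID4 and ID2. In edgeR's quasi-likelihood test, 173 of 17256 genes were called at an adjusted p under 0.05 (1.00% of genes tested). Of these, 136 were lower in Saengmaek-san (0.788%) and 37 were higher (0.214%). At least 2-fold changes numbered 14 lower and 1 higher. As a background for groups that do not overlap, the CPM ranges of the 3 and 3 libraries stood apart for 8.67% of all genes tested, 5.51% with Saengmaek-san lower and 3.16% with it higher. In RNA from whole cultures, fewer cells of a kind and less RNA per cell cannot be told apart.

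The count of calls depended on the fit, which took its spread from all 57 libraries. With the 6 libraries alone, 23 genes were called, 22 lower and 1 higher, all of them among the 173. With the same 6 libraries and a term for replicate number, 264 were called, of which 143 were among the 173. Without a single library the count was 107 to 154, with 115 and 107 without Saengmaek-san replicates 2 and 3, and 109 and 115 without Guibi-tang replicates 1 and 2. Within the first 31 libraries by name, which leaves out replicate 3 of both, 184 genes were called, of which 123 were among the 173.

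**Figure D1:**
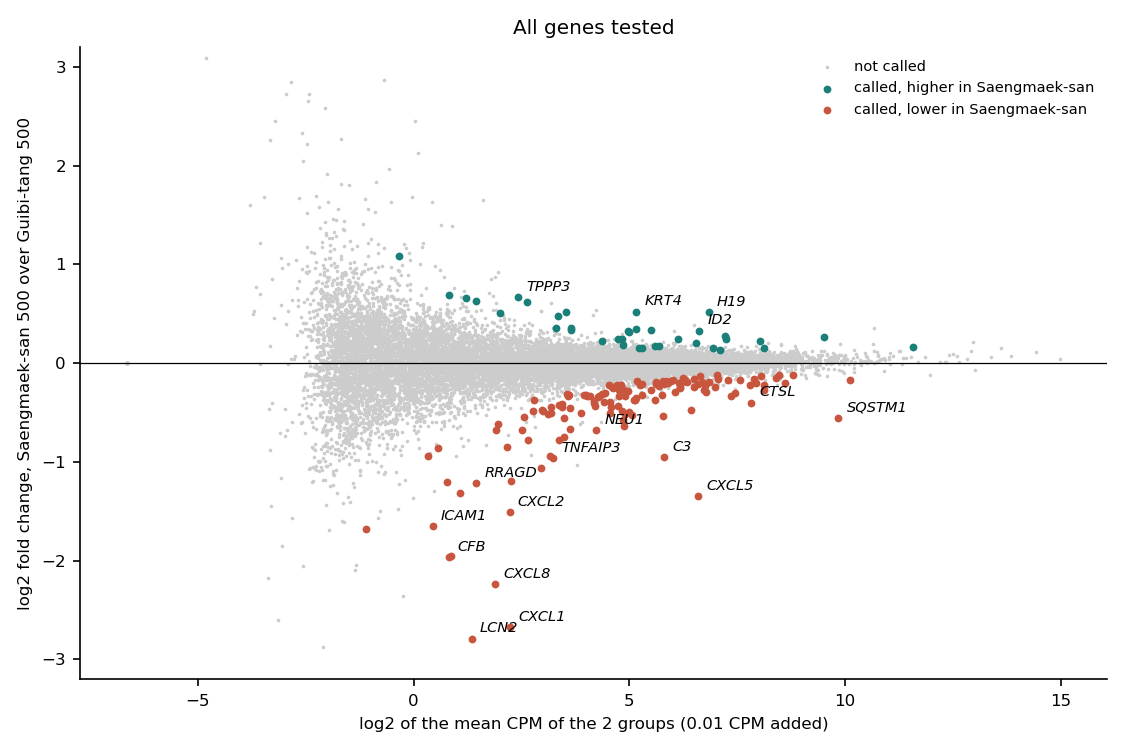
Each point is 1 of the 17256 genes tested, with the log2 mean CPM of Saengmaek-san 500 and Guibi-tang 500 on the x axis and the log2 fold change, Saengmaek-san over Guibi-tang, on the y axis. Called genes are coloured. They extend to -2.79 (LCN2) on the lower side and to 1.09 (ACSBG1) on the higher side. The axis leaves out 26 genes with larger fold changes, of which 0 were called.

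All 5 chemokines of neutrophils that passed the filter on low counts (CXCL1, CXCL2, CXCL3, CXCL5 and CXCL8) were called lower, against 0.788% of all genes, and the median log2 fold change was -1.51, against 0.0042 for all genes. The other 2 of the 7, CXCL6 and PPBP, averaged 0 CPM in Saengmaek-san and 0.0779 and 0.0257 CPM in Guibi-tang, and were not tested. For the counts of each list below, the background is 0.788% of all genes called lower and 0.214% called higher.

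CXCL1 had 1.22, 1.16 and 1.47 CPM in the 3 Saengmaek-san libraries, against 7.36, 7.89 and 9.19 CPM in the 3 Guibi-tang libraries. The groups did not overlap, and vehicle had 0.998, 0.906 and 1.09 CPM. Its log2 fold change was -2.67 ± 0.196 (SE, adjusted p = 8.8e-14). CXCL8, the main neutrophil attractant of the human airway, had 1.28, 1.02 and 1.57 CPM in Saengmaek-san, against 6.38, 6.81 and 5.05 CPM in Guibi-tang. The lowest Guibi-tang library was still above every Saengmaek-san library, and the log2 fold change was -2.24 ± 0.17 (adjusted p = 2.33e-13). Vehicle had 0.998, 1.13 and 0.662 CPM of CXCL8.

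CXCL5 was the most abundant of the family. It had 55.3, 55.1 and 50.7 CPM in Saengmaek-san, against 152, 141 and 123 CPM in Guibi-tang and 54.9, 52.1 and 54.7 CPM in vehicle. Saengmaek-san and vehicle shared a range, Guibi-tang stood apart, and the log2 fold change of -1.35 ± 0.048 had the smallest adjusted p of all genes (1.41e-25). CXCL2 had 2.77, 1.85 and 2.63 CPM in Saengmaek-san, against 6.9, 6.97 and 6.84 CPM in Guibi-tang. Its log2 fold change was -1.51 ± 0.135 (adjusted p = 3.97e-11). CXCL3 had 1.45, 0.992 and 1.11 CPM in Saengmaek-san, against 2.75, 3.39 and 2.86 CPM in Guibi-tang (log2 fold change -1.32 ± 0.184, adjusted p = 3.89e-06). CXCL1, CXCL2 and CXCL3 are close copies of each other, and the deposited values are expected counts from RSEM, which estimates how reads are shared. The split among the 3 is therefore less certain than their common direction.

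**Figure D2:**
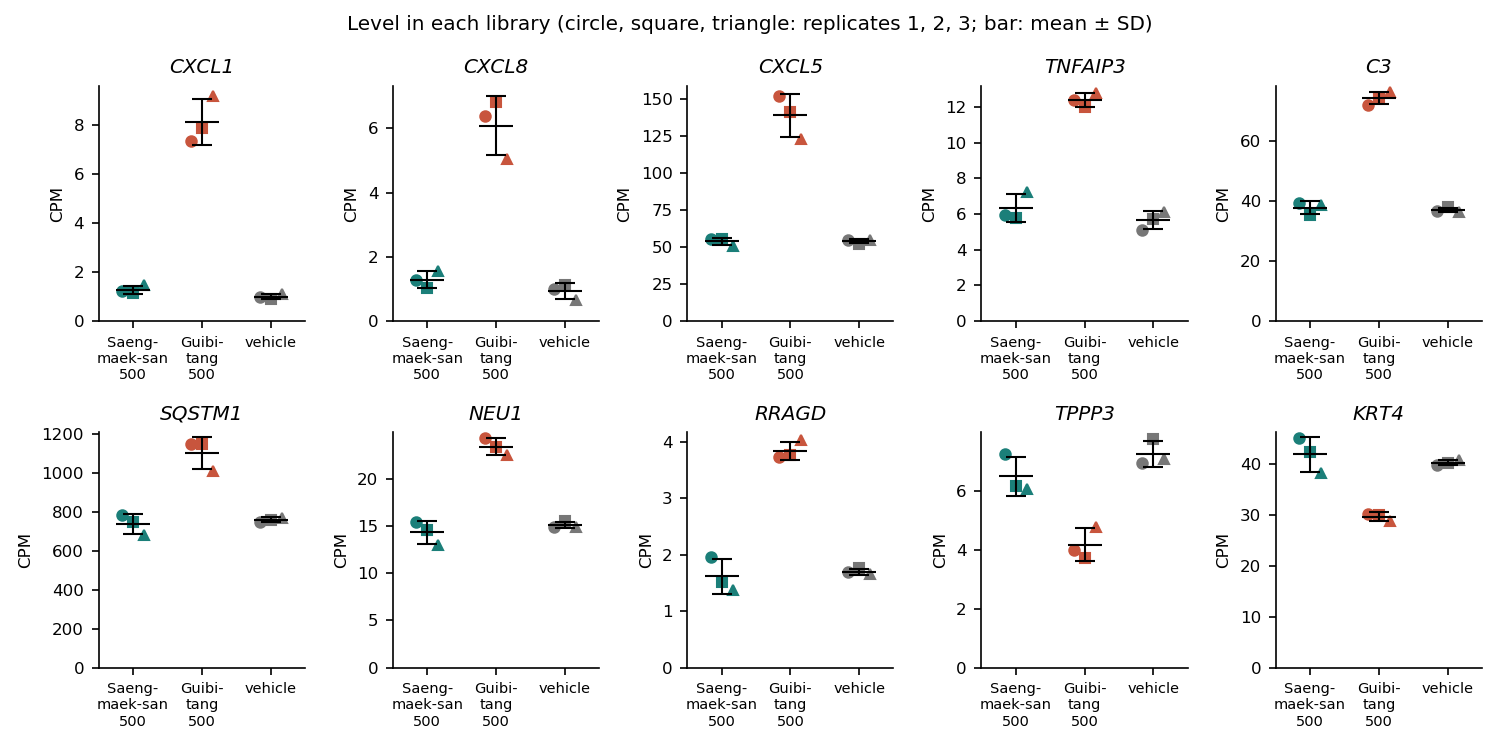
CPM of 10 genes in each library of Saengmaek-san 500, Guibi-tang 500 and vehicle, with each replicate as its own symbol and the mean ± SD as a bar. For CXCL1, CXCL8, CXCL5, TNFAIP3, C3, SQSTM1, NEU1 and RRAGD all 3 Guibi-tang libraries lie above all 3 Saengmaek-san libraries; for TPPP3 and KRT4 they lie below.

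Among the other chemokines, 1 of the 4 tested was called. This was CCL2, which attracts monocytes, with 4.52, 5.06 and 5.26 CPM in Saengmaek-san, against 9.41, 8.74 and 13.3 CPM in Guibi-tang. The groups did not overlap, although the third Guibi-tang library was well above the other 2, and the log2 fold change was -1.07 ± 0.162 (adjusted p = 2.15e-05). Among the cytokines, 2 of the 8 tested were lower. IL32, a cytokine made by epithelial and immune cells, had 2.87, 3.21 and 2.43 CPM in Saengmaek-san, against 6.57, 5.62 and 7.76 CPM in Guibi-tang (log2 fold change -1.19 ± 0.171, adjusted p = 6.68e-06). LIF, of the IL-6 family, was lower by much less (-0.19 ± 0.0409, adjusted p = 0.00625), and without Saengmaek-san replicate 3 it was not called. TNF, IL1A, IL1B and IL6 averaged under 0.1 CPM in both groups and were not tested.

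Of the receptors and adaptors that lead to NF-kB, 1 of the 20 tested was called. IRAK2, a kinase that relays signals of the IL-1 receptor and Toll-like receptors, had 7.19, 8.63 and 6.83 CPM in Saengmaek-san, against 13.7, 13.3 and 12.5 CPM in Guibi-tang. The log2 fold change was -0.78 ± 0.0841 (adjusted p = 1e-08). Of the 11 NF-kB subunits and kinases, 2 were called lower and the list median was -0.08. MAP3K8, a kinase activated downstream of the same receptors, had 20.6, 21.4 and 18.5 CPM in Saengmaek-san, against 27.7, 29.6 and 25.9 CPM in Guibi-tang (-0.44 ± 0.0548, adjusted p = 2.88e-07). RELB, a subunit of the slower NF-kB pathway, had 12.9, 13 and 10.1 CPM in Saengmaek-san, against 19, 18.4 and 14.6 CPM in Guibi-tang. Its log2 fold change of -0.50 ± 0.116 (adjusted p = 0.0128) was not called without Saengmaek-san replicate 3, or without Guibi-tang replicate 1 or 2. The subunit RELA differed by 0.01 on the log2 scale, NFKB1 by -0.13 and NFKB2 by -0.19, and none of these was called.

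The inhibitors of NF-kB, which the pathway itself turns on, were lower in 4 of 15 cases. TNFAIP3, the ubiquitin-editing enzyme A20, had 5.97, 5.78 and 7.23 CPM in Saengmaek-san, against 12.4, 12 and 12.8 CPM in Guibi-tang and 5.13, 5.75 and 6.12 CPM in vehicle. The Guibi-tang libraries lay close together and far above the rest, and the log2 fold change was -0.96 ± 0.105 (adjusted p = 1.16e-08). NFKBIZ, an atypical inhibitor protein of the nucleus, had 10.4, 11.2 and 9.46 CPM in Saengmaek-san, against 14.4, 16.2 and 12.6 CPM in Guibi-tang (-0.46 ± 0.0876, adjusted p = 0.00132). ZC3H12A, an RNase that degrades cytokine messages, was lower by 0.43 on the log2 scale (adjusted p = 9.38e-05), with 15.1 to 16.3 CPM in Saengmaek-san and 20.5 to 22.2 CPM in Guibi-tang. BIRC3, a ubiquitin ligase that limits cell death, had 28.7 to 33.6 CPM in Saengmaek-san and 36.4 to 41.9 CPM in Guibi-tang (-0.35 ± 0.0632, adjusted p = 0.000443). The classical inhibitor NFKBIA had a log2 fold change of -0.20 and was not called (adjusted p = 0.193). In the promoters of this list, 6 of the 14 found in the table held GGNNTTTCC, TNFAIP3, NFKBIZ and BIRC3 among them. The list was drawn up as inhibitors and feedback genes of NF-kB, so this share is no independent result.

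Of the further NF-kB targets, 6 of 19 tested were lower and none was higher, with a list median of -0.25. PDZK1IP1, a small membrane protein, had 0.709, 0.826 and 0.658 CPM in Saengmaek-san, against 3.26, 2.23 and 3.27 CPM in Guibi-tang (-1.96 ± 0.263, adjusted p = 1.67e-06). ICAM1, the adhesion molecule that leukocytes grip, had 0.743, 0.694 and 0.455 CPM in Saengmaek-san, against 1.77, 2.31 and 2.09 CPM in Guibi-tang. Its log2 fold change was -1.65 ± 0.306 (adjusted p = 0.000695), at levels of a few CPM or less. EFNA1, a ligand of Eph receptors, had 10.5, 10.1 and 7.54 CPM in Saengmaek-san, against 15.1, 17.3 and 13.1 CPM in Guibi-tang (-0.67 ± 0.0989, adjusted p = 1.36e-05).

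Enzymes of oxidant defence and of prostaglandin synthesis were in the same group. SOD2, the superoxide dismutase of mitochondria, had 73, 77.6 and 62.9 CPM in Saengmaek-san, against 106, 110 and 85.5 CPM in Guibi-tang (-0.48 ± 0.053, adjusted p = 1.85e-08). Replicate 3 was the lowest library on both sides, and the groups did not overlap. PTGES, which makes prostaglandin E2, had 20.7, 20.2 and 16.7 CPM in Saengmaek-san, against 30.4, 27.1 and 26.1 CPM in Guibi-tang (-0.51 ± 0.0715, adjusted p = 4.22e-06). PTGS2, the inducible cyclooxygenase, had 33.5, 29.9 and 26.2 CPM in Saengmaek-san, against 43.5, 39.2 and 35.1 CPM in Guibi-tang. Its log2 fold change of -0.37 ± 0.078 (adjusted p = 0.00487) was not called without Saengmaek-san replicate 2 or 3, or without Guibi-tang replicate 1.

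Of 17 complement genes tested, 4 were lower and 1, not named here, was higher, and the list median was 0.00. C3, the central protein of the cascade, had 39.3, 35.2 and 38.7 CPM in Saengmaek-san, against 72, 74.3 and 76 CPM in Guibi-tang and 36.6, 37.8 and 36.4 CPM in vehicle. The log2 fold change was -0.96 ± 0.0696 (adjusted p = 8.43e-14). CFB, a protease of the alternative pathway, had 0.709, 0.76 and 0.658 CPM in Saengmaek-san, against 2.89, 2.73 and 2.86 CPM in Guibi-tang (-1.96 ± 0.221, adjusted p = 2.07e-08). C1R, a protease of the classical pathway, was lower by less (-0.29 ± 0.0515, adjusted p = 0.000449). Its partner C1S (-0.25 ± 0.058, adjusted p = 0.0126) was not called without Saengmaek-san replicate 3 or without Guibi-tang replicate 2.

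Of the acute phase genes, 10 of 20 were tested and 1 was called. LCN2, the iron-binding lipocalin of inflamed epithelium, had 0.608, 0.43 and 0.911 CPM in Saengmaek-san, against 3.87, 3.62 and 5.72 CPM in Guibi-tang and 0.723, 0.821 and 0.761 CPM in vehicle. Its log2 fold change of -2.79 ± 0.246 was the lowest among called genes (adjusted p = 3.23e-11). The median of the 10 tested members was 0.09.

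**Figure D3:**
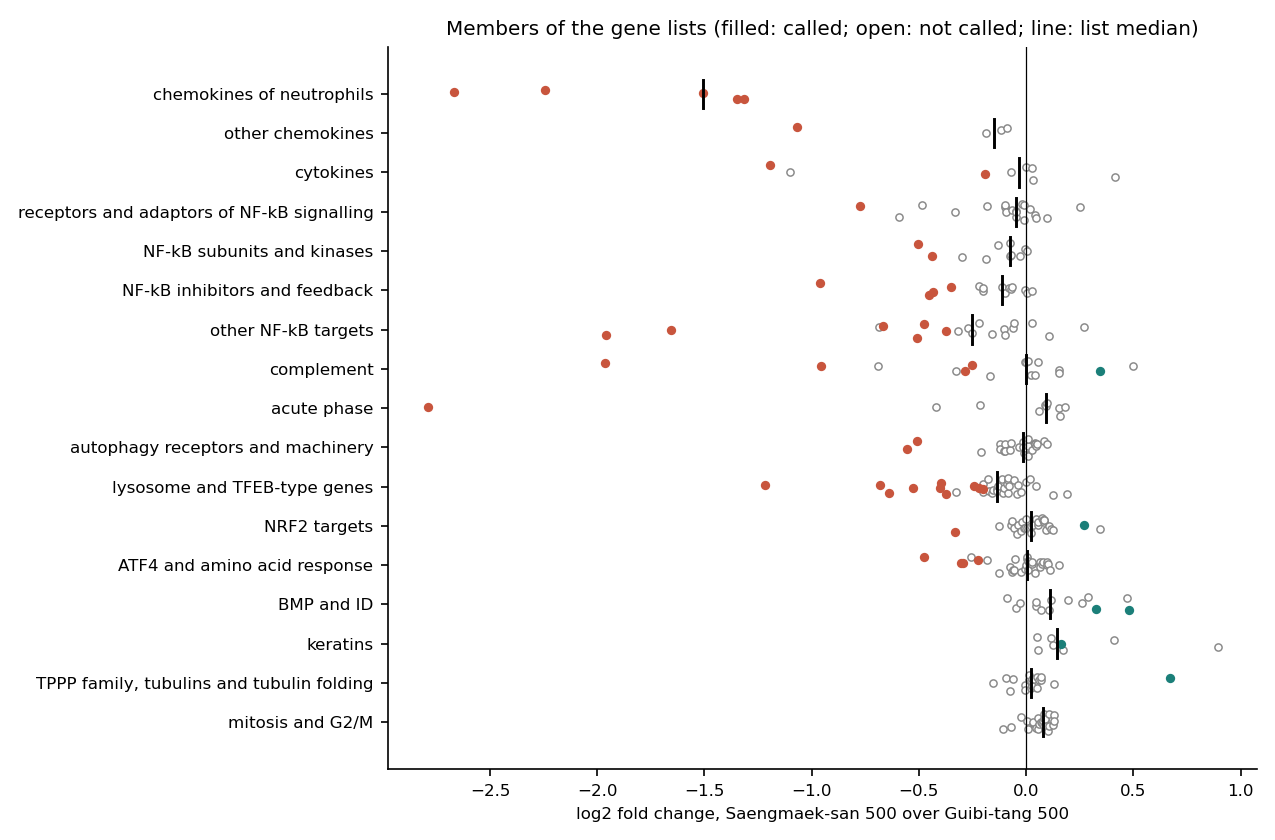
Log2 fold change, Saengmaek-san 500 over Guibi-tang 500, of each tested member of 17 gene lists, with called genes filled and list medians as lines. All 5 tested neutrophil chemokines are filled on the left, whereas most lists straddle 0 with a few called members.

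Of the 26 genes of autophagy, 2 were lower, both of them receptors that bring cargo to autophagosomes. SQSTM1, also called p62, had 784, 751 and 682 CPM in Saengmaek-san, against 1150, 1150 and 1010 CPM in Guibi-tang and 748, 761 and 772 CPM in vehicle. The groups did not overlap, and replicate 3 was the lowest library of both decoctions. The log2 fold change was -0.56 ± 0.0383 (adjusted p = 1.74e-14). SQSTM1 is also a known target of NRF2. Of the 32 genes on the NRF2 list, which does not hold it, 1 was lower (HMOX1, haem oxygenase, -0.33 ± 0.0428, adjusted p = 7.65e-07) and 1 was higher (ALDH3A1, 0.27 ± 0.0569, adjusted p = 0.00544). Without Saengmaek-san replicate 1 or without Guibi-tang replicate 2, ALDH3A1 was not called. OPTN, optineurin, had 24, 24.8 and 24.5 CPM in Saengmaek-san, against 35.9, 35.1 and 34.7 CPM in Guibi-tang (-0.51 ± 0.0588, adjusted p = 3.84e-08). Its promoter held GGNNTTTCC. The core autophagy genes on the list were not called, the largest difference among the uncalled being that of TOLLIP (-0.21, adjusted p = 0.081).

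Of the 37 lysosome and TFEB-type genes tested, 10 were lower and none was higher, against 0.788 and 0.214% of all genes tested. The list median was -0.13 and 33 of the 37 had a fold change below 0, against 8321 of all 17256 genes. Called members included the machinery that signals amino acid supply from the lysosome surface. RRAGD, a Rag GTPase, had 1.96, 1.52 and 1.37 CPM in Saengmaek-san, against 3.73, 3.77 and 4.03 CPM in Guibi-tang (-1.22 ± 0.16, adjusted p = 9.49e-07). FLCN, folliculin, which acts on RRAGC and RRAGD, had 24.7, 25.3 and 17.9 CPM in Saengmaek-san, against 39.7, 40.7 and 27.3 CPM in Guibi-tang. Replicate 3 was low on both sides, by about the same ratio, and the log2 fold change was -0.64 ± 0.11 (adjusted p = 0.000236).

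The partner of folliculin, FNIP1, had 27.7, 29.7 and 24.2 CPM in Saengmaek-san, against 41, 42 and 36.6 CPM in Guibi-tang (-0.53 ± 0.0591, adjusted p = 2.07e-08). RRAGC had 21, 21.7 and 17.4 CPM in Saengmaek-san, against 26.1, 28.9 and 25.4 CPM in Guibi-tang (-0.40 ± 0.0559, adjusted p = 4.35e-06). Enzymes inside the lysosome were called too. NEU1 had 15.4, 14.6 and 13 CPM in Saengmaek-san, against 24.3, 23.3 and 22.5 CPM in Guibi-tang and 14.9, 15.5 and 14.9 CPM in vehicle (-0.68 ± 0.0609, adjusted p = 3.97e-11). The protease CTSL had 203, 195 and 186 CPM in Saengmaek-san, against 269, 265 and 248 CPM in Guibi-tang (-0.40 ± 0.0468, adjusted p = 5.35e-08).

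A smaller difference was found in NPC2, which hands on cholesterol (-0.38, adjusted p = 0.000118). The protease CTSD (-0.22, adjusted p = 0.0262) and the carboxypeptidase CTSA (-0.20, adjusted p = 0.0237) were called, but CTSD lost its call without any 1 of 5 of the 6 libraries and CTSA without any 1 of 4. NEU1, FNIP1, RRAGC, CTSD and CTSA were the called members whose promoters held TCACGTG. The factors themselves, TFEB (0.04), TFE3 (-0.00) and MITF (0.19), were not called. CD68 had 10.1, 9.19 and 16.4 CPM in Saengmaek-san, against 13, 12.7 and 19 CPM in Guibi-tang, and was not called either.

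Over all called genes with a promoter in the table, TCACGTG was found in 17 of the 106 lower genes (16.04%) and in 0 of the 27 higher genes. GGNNTTTCC was found in 14 of the 106 lower genes (13.2%) and in 0 of the 27 higher genes. Both shares are descriptions, given beside 3.71 and 6.26% of all promoters. That background counts all 35116 promoters of the table, of genes tested or not, whereas each called gene counts once. At such shares 27 genes are too few for a count of 0 to stand out from it.

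Of the 37 genes higher in Saengmaek-san, 9 belonged to a list, against 54 of the 136 lower genes and 694 of all 17256 genes tested. No list held more than 2 of the higher genes. TPPP3, a protein that bundles microtubules, was the highest of the ranked genes, with 7.26, 6.18 and 6.07 CPM in Saengmaek-san, against 4.01, 3.73 and 4.8 CPM in Guibi-tang and 6.95, 7.79 and 7.08 CPM in vehicle. The groups did not overlap (0.67 ± 0.121, adjusted p = 0.000528). It was 1 of 20 tested genes of tubulins and tubulin folding, and the other 19 were not called. None of the 12 tested genes of motile cilia, a structure whose cells also carry TPPP3, was called.

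Epithelial genes were among the next. KRT4, a keratin of internal lining epithelia, had 45, 42.4 and 38.2 CPM in Saengmaek-san, against 30.2, 30 and 28.7 CPM in Guibi-tang and 39.8, 40.2 and 40.7 CPM in vehicle (0.52 ± 0.0534, adjusted p = 2.8e-09). It was the 1 higher gene that stayed called when the 6 libraries were fitted alone. KRT8 was called as well, but its groups overlapped (0.16 ± 0.0428, adjusted p = 0.046) and without any 1 of 5 libraries it was not called. All 8 tested keratins on the list, which does not hold KRT4, had fold changes above 0, with a median of 0.14. AGR2, a chaperone of mucin-making cells, had 275, 280 and 280 CPM in Saengmaek-san, against 248, 243 and 233 CPM in Guibi-tang (0.23 ± 0.0497, adjusted p = 0.00742). Without Saengmaek-san replicate 3 or Guibi-tang replicate 2 it was not called.

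ID2 and ID4, which block the partners of basic helix-loop-helix factors and respond to BMP signals, were the 2 higher of 14 genes on their list. ID4 had 12.2, 11.1 and 11.9 CPM in Saengmaek-san, against 8.81, 8.47 and 8.27 CPM in Guibi-tang and 11.7, 12.3 and 12.4 CPM in vehicle (0.48 ± 0.0919, adjusted p = 0.00128). ID2 had 106, 111 and 110 CPM in Saengmaek-san, against 85.9, 89.1 and 89.4 CPM in Guibi-tang (0.33 ± 0.0577, adjusted p = 0.000339). ID1 (0.26, adjusted p = 0.133) and ID3 (0.11, adjusted p = 0.723) were not called.

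H19, an imprinted noncoding RNA, had 134, 114 and 154 CPM in Saengmaek-san, against 92.7, 85.6 and 108 CPM in Guibi-tang. The groups did not overlap, but the spread within each was wide, and the call (0.51 ± 0.119, adjusted p = 0.0151) was lost without Saengmaek-san replicate 3 or without Guibi-tang replicate 1 or 2. C1orf116, a gene that androgen is known to induce in prostate cells, had 7.7, 7.44 and 7.08 CPM in Saengmaek-san, against 5.17, 4.77 and 4.8 CPM in Guibi-tang (0.61 ± 0.103, adjusted p = 0.000135). TM4SF4, a membrane protein with 4 spans, had 14.7, 14.4 and 11.6 CPM in Saengmaek-san, against 10.1, 10.6 and 8.27 CPM in Guibi-tang (0.51 ± 0.102, adjusted p = 0.00213). HR, a corepressor of nuclear receptors, had 56.2, 49.7 and 45.3 CPM in Saengmaek-san, against 40.1, 40.5 and 41.2 CPM in Guibi-tang (0.33 ± 0.0551, adjusted p = 0.000107). The other ranked genes were MDGA1 (0.35, adjusted p = 0.00625), KRCC1 (0.36, adjusted p = 0.0461) and BCAS1 (0.34, adjusted p = 0.0142), and each lost its call without at least 2 of the 6 libraries in turn.

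Among the lowest ranked genes were also 3 outside the lists. UAP1L1, related to an enzyme of amino sugar synthesis, had 7.05, 5.65 and 5.41 CPM in Saengmaek-san, against 12.2, 12.7 and 10.5 CPM in Guibi-tang (-0.94 ± 0.103, adjusted p = 1.3e-08). RHCG, an ammonia transporter, had 3.54, 3.37 and 2.58 CPM in Saengmaek-san, against 6.06, 6.16 and 5.26 CPM in Guibi-tang (-0.85 ± 0.0985, adjusted p = 4.82e-08). MCTP1, a calcium-binding membrane protein, had 3.98, 5.09 and 4.65 CPM in Saengmaek-san, against 7.41, 8.89 and 7.56 CPM in Guibi-tang (-0.78 ± 0.124, adjusted p = 4.85e-05).

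Of 31 genes of the amino acid response, 4 were lower: DDIT3 (-0.47), TRIB3 (-0.30), GDF15 (-0.30) and VLDLR (-0.23). Each of the 4 lost its call without at least 2 of the 6 libraries taken in turn, and the list median was 0.00. The ER stress sensor ERN1 was 1 of 21 (-0.35 ± 0.0682, adjusted p = 0.00176). OSMR (-0.17) and JAK1 (-0.12) were lower on the STAT3 list, and both lost their calls without any 1 of the 6 libraries. EPAS1, the hypoxia factor HIF-2 alpha, had 260, 249 and 239 CPM in Saengmaek-san, against 298, 312 and 306 CPM in Guibi-tang (-0.27 ± 0.0474, adjusted p = 0.000257), whereas the hypoxia marker CA9 was higher (0.65 ± 0.166, adjusted p = 0.0343) at 2.8 to 2.84 CPM against 1.58 to 2.1 CPM. The call of CA9 was lost without any 1 of 5 libraries. COL4A1 (-0.17), PMEPA1 (-0.16), FOSL2 (-0.16), ABCA1 (-0.33) and SCD (-0.17) were lower and CCN1 (0.24) was higher, and none of these calls held in all 6 fits that leave out 1 library.

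No member was called among heat shock genes (16 tested), metallothioneins (7), cholesterol synthesis (24), DNA replication (26), mitosis (26), ribosome biogenesis (24), cytosolic ribosomal proteins (34), mitochondrially encoded genes (13), nuclear oxidative phosphorylation (26) or selenoproteins (17). The median of the mitosis list was 0.08 and that of DNA replication 0.06, each with 23 of 26 members above 0. Over all genes tested 8920 of 17256 were above 0. Other lists leaned this way too, with 31 of 34 cytosolic ribosomal proteins and 22 of 26 nuclear oxidative phosphorylation genes above 0. Cholesterol synthesis leaned the other way, with 18 of 24 below 0. All 13 mitochondrially encoded genes were above 0, with a median of 0.12, beside the wide range of their share over the 6 libraries.

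The same pair was then compared at the lower doses. The libraries of each dose are its own, but all come from the one fit over 57 libraries and share its estimate of the spread, so the comparisons are not independent. Library order was unbalanced here, since replicate 2 of Guibi-tang at 100 and 20 lay among the later libraries (19.3 and 19.2% mitochondrial counts) and replicate 2 of Saengmaek-san at 100 and 20 among the first 31 (12.4 and 11.7%). Its part in the results at these doses was not tested beyond a term for library order. At 100 µg/mL, 8 genes were called (0.0464% of those tested), all lower in Saengmaek-san. CXCL1, CXCL2, CXCL5, CXCL8, IL32 and C3 were called at both doses with the same direction, which is 75% of the calls at 100 and 3.47% of those at 500. The other calls at 100 were TFPI2 (-0.19, adjusted p = 0.0393) and RPL17P6, a ribosomal protein pseudogene whose reads may come from RPL17. RPL17P6 rested on 1 Guibi-tang library at 14.6 CPM beside 4.62 and 3.53 CPM. Without Guibi-tang 100 replicate 1 or 2 the count at 100 was 47 or 53, and without any 1 of the other 4 libraries it was 3 to 5. At 20 µg/mL the test called 0 genes, with 531 at an unadjusted p under 0.05, and DESeq2 called 2.

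CXCL5 averaged 52.9 ± 4.69, 48.9 ± 6.02 and 53.7 ± 2.59 CPM (SD, n = 3) in Saengmaek-san at 20, 100 and 500. In Guibi-tang it averaged 60.6 ± 4.44, 74.5 ± 3.97 and 139 ± 14.6 CPM at the same doses. The log2 fold change was -0.23 at 20, -0.60 at 100 and -1.35 at 500, so the gap widened with dose while Saengmaek-san stayed near the vehicle mean of 53.9 ± 1.58 CPM. CXCL1 averaged 1.1 ± 0.137, 1.14 ± 0.501 and 1.28 ± 0.165 CPM in Saengmaek-san over the 3 doses, and 2.39 ± 0.411, 3.61 ± 0.74 and 8.15 ± 0.94 CPM in Guibi-tang. At 20 its log2 fold change of -1.14 missed the threshold (adjusted p = 0.16). C3 averaged 36.6 ± 1.33, 37.4 ± 1.1 and 37.7 ± 2.24 CPM in Saengmaek-san, and 39.7 ± 0.499, 48.2 ± 1.49 and 74.1 ± 1.99 CPM in Guibi-tang.

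SQSTM1 and the lysosomal genes had another course. SQSTM1 averaged 733 ± 60.2, 718 ± 64 and 739 ± 52.4 CPM in Saengmaek-san at 20, 100 and 500, and 698 ± 60.6, 711 ± 59.7 and 1103 ± 82.1 CPM in Guibi-tang. The log2 fold changes at 20 and 100 were 0.03 ± 0.038 and 0.02 ± 0.038, so a gap was measured at 500 alone among the 3 doses. NEU1 averaged 14.5 ± 0.742, 13.5 ± 1.32 and 14.3 ± 1.22 CPM in Saengmaek-san, and 14.8 ± 1.72, 14.6 ± 0.812 and 23.4 ± 0.908 CPM in Guibi-tang. The lysosome list had a median of 0.02 at 20, 0.03 at 100 and -0.13 at 500. The neutrophil chemokines had medians of -0.41, -0.77 and -1.51 at these doses.

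TPPP3 averaged 6.58 ± 0.598, 5.92 ± 0.726 and 6.5 ± 0.655 CPM in Saengmaek-san, and 6.41 ± 0.755, 5.96 ± 0.809 and 4.18 ± 0.553 CPM in Guibi-tang. ID4 averaged 11.8 ± 0.248, 11.8 ± 0.379 and 11.7 ± 0.57 CPM in Saengmaek-san, and 12.8 ± 0.656, 11 ± 1.37 and 8.52 ± 0.272 CPM in Guibi-tang. For both genes the low level was that of Guibi-tang at 500.

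**Figure D4:**
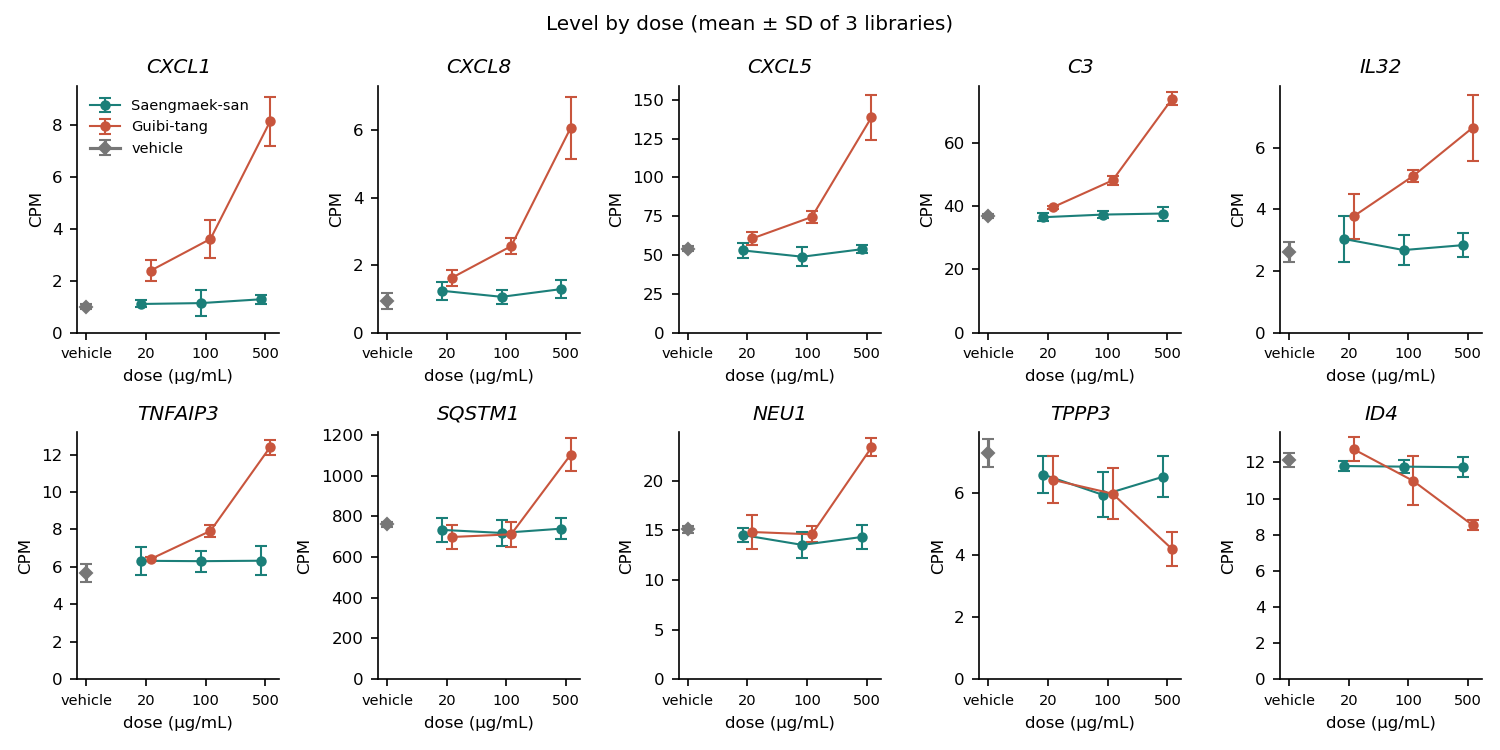
Mean CPM ± SD of 3 libraries for 10 genes in vehicle and at 20, 100 and 500 µg/mL of Saengmaek-san and Guibi-tang. The Guibi-tang means of CXCL1, CXCL8, CXCL5, C3 and IL32 lie above those of Saengmaek-san at all 3 doses, while SQSTM1 and NEU1 part at 500, to 739 and 1103 CPM for SQSTM1.

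A test of the difference between the decoctions at 500 less that at 20 called 51 genes (0.296%), 43 of them lower (0.249%) and 8 higher (0.0464%). It was -1.11 on the log2 scale for CXCL5, -0.80 for C3, -0.59 for SQSTM1 and -0.61 for NEU1. For ID4 it was 0.63 (adjusted p = 0.0058), and for TPPP3 it was 0.66 and missed the threshold (adjusted p = 0.067). CXCL3, ICAM1, CFB, IL32 and CCL2 also missed it, so a change of their gap with dose was not shown.

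Both decoctions were also set against vehicle, and these comparisons share the vehicle libraries with each other and their 500 libraries with the one above. Against vehicle, 106 genes were called in Saengmaek-san 500 (0.614%) and 762 in Guibi-tang 500 (4.42%). With only the groups compared these counts were 0 and 224, and without vehicle replicate 3 they were 23 and 498. Of the 106 and 762, 61 were higher (0.354%) and 45 lower (0.261%) in Saengmaek-san, and 454 were higher (2.63%) and 308 lower (1.78%) in Guibi-tang. CXCL1 had a log2 fold change of 0.34 in Saengmaek-san (adjusted p = 0.7) and 3.01 in Guibi-tang (adjusted p = 1.7e-15). CXCL8 had 0.43 in Saengmaek-san (adjusted p = 0.52) and 2.67 in Guibi-tang (adjusted p = 1.5e-15). SQSTM1 had -0.04 in Saengmaek-san (adjusted p = 0.83) and 0.52 in Guibi-tang (adjusted p = 9e-14).

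NEU1 had -0.07 in Saengmaek-san (adjusted p = 0.77) and 0.61 in Guibi-tang (adjusted p = 5.2e-10). TPPP3 had -0.16 in Saengmaek-san (adjusted p = 0.68) and -0.83 in Guibi-tang (adjusted p = 3.3e-06), and KRT4 had 0.06 (adjusted p = 0.78) and -0.46 (adjusted p = 3.2e-08). For these genes the side that left vehicle was Guibi-tang. CCN1, a matrix protein induced by YAP, was lower than vehicle in both, by 0.27 in Saengmaek-san (adjusted p = 0.0039) and by 0.51 in Guibi-tang (adjusted p = 1.8e-09).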

How the data were processed

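The submitters' processing notes name FastQC 0.11.9, Trim Galore 0.6.5, STAR 2.7.3a, RSEM 1.3.3 and the build GRCh38. The authors deposited expected counts of 60675 genes per library; the annotation and the strand setting of the counting are not given in the sources used here, so overlapping and antisense genes may share reads. Of the values, 10.5% were not whole, and all were rounded. All 60 libraries held 18330592 to 35308791 counts, and 57 libraries in 19 groups were fitted together with edgeR 4.0.16 (quasi-likelihood, TMM, filterByExpr; R 4.3.3, limma 3.58.1). Soshiho-tang, with 1 library a dose, was left out. Adjusted p-values are Benjamini-Hochberg over 17256 genes, called under 0.05. The fit was tested on simulated data that held no effect of replicate or library order. That test cannot show how such effects bear on the calls. Fold changes are Saengmaek-san over Guibi-tang. CPM were computed from library totals. Chi-square per degree of freedom between the 6 libraries was at least 3.54, so none was a copy. It was 3.54 to 5.22 among replicates 1 and 2 of both groups and 4.04 between the replicates 3 of both. Between a replicate 3 and a replicate 1 or 2 it was 21.5 to 44.5, also within a decoction. Libraries thus differed more by replicate 3 than by decoction, and the cause was not tested.

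The members, the 42 gene lists and the tests were chosen with earlier results of these data known, so list counts are descriptions. Named genes were the 12 highest and 12 lowest called genes of 5 CPM or more in either group, without overlap, up to 3 called members a list and direction, the 6 smallest adjusted p-values, and CXCL1, SQSTM1 and TPPP3. Other called list members, uncalled members given for contrast, the calls at 100 and genes in no list called in all 6 fits without 1 library were added after their values were seen. Alternatives were DESeq2 1.42.0, its size factors, no filter, no mitochondrial genes, fewer libraries, terms for replicate number or library order, and leaving out each library. Symbols came from a current gene table for 41209 genes and from GENCODE 29 for 15846, and 3620 had none. A few called genes are not reported here.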

Additional observations from a re-analysis of the deposited data

Results flagged for a closer look

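The gap between the decoctions differed between 500 and 20 µg/mL for 51 genes by a test of that difference in edgeR, and these are the named ones. Values are the log2 difference, Saengmaek-san over Guibi-tang, at 500 less that at 20. Among chemokines it was -1.53 for CXCL1, -1.84 for CXCL8, -1.01 for CXCL2 and -1.11 for CXCL5. Among genes of NF-kB signalling it was -0.91 for TNFAIP3, -0.85 for IRAK2, -0.45 for MAP3K8, -0.53 for NFKBIZ, -0.50 for ZC3H12A and -0.43 for BIRC3. Among its further targets it was -1.99 for PDZK1IP1, -0.64 for PTGES and -0.47 for SOD2. It was -0.80 for C3, -3.04 for LCN2 and -0.27 for HMOX1.

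For autophagy receptors it was -0.59 for SQSTM1 and -0.46 for OPTN. For lysosomal genes it was -1.29 for RRAGD, -0.61 for NEU1, -0.78 for FLCN, -0.55 for FNIP1, -0.33 for CTSL and -0.42 for RRAGC.

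Among genes in no list it was -0.92 for UAP1L1, -0.79 for RHCG, -0.78 for MCTP1, -0.65 for C1QTNF1, -0.66 for HS1BP3, -0.54 for ASS1 and -0.72 for FBXO32. It was -0.51 for GNPDA1, -0.66 for HKDC1, -0.72 for NCR3LG1, -0.50 for STX3, -0.47 for BRI3 and -0.51 for PLIN2. It was -0.40 for EPHB2, -0.31 for VAT1 and -0.21 for CDC25B. The gap rose with dose for KRT4 (0.32), ID4 (0.63), HR (0.39) and ID2 (0.35).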

How the results depend on the processing

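Of the 89 genes named for their calls at 500, none changed direction under an alternative run; single genes at the other doses and against vehicle were not refitted. At 500, the 173 calls (37 higher, 136 lower) became 23 (1 and 22) with the 6 libraries alone, 49 (4 and 45) with the 18 libraries of the pair, and 267 (64 higher) with a term for the first 31 libraries by name. The first 31 libraries alone gave 184. Without a filter on low counts 236 were called, 83 of them higher, so that 64.8% of calls were lower, against 78.6%. Without 1 library the count was 107 to 154 (18 to 29 higher, 85 to 126 lower). Deviations from the group means at 500 correlated between the decoctions at 0.0781, 0.195 and 0.351 for replicates 1, 2 and 3. Replicate 1 of one with replicate 2 of the other gave 0.126 and 0.117. Replicate 3 with replicate 1 or 2 gave -0.161 to -0.265. Replicate 3 thus deviated alike in both groups, while replicates 1 and 2 did not pair by number. With the replicate number as a block, 264 (65 higher) were called in the 6 libraries and 240 in all 57.

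At 100, the 8 calls became 235 with no filter, 18 with DESeq2, 4 in the first 31 libraries, where Guibi-tang 100 has 1 library, assumed to vary like the other groups, and 1 each with only the groups compared, with that fit and the replicate block, and with 18 libraries; without 1 library they were 3 to 53. At 20, the 0 calls became 91 with no filter, 2 with DESeq2, 1 with the term, 2 with the replicate block, and 0 to 1 without 1 library. The 51 dose-dependent gaps became 157 with no filter, 5 with only the groups compared, 9 with the block added, 13 with 18 libraries, 21 in the first 31, where Guibi-tang 20 has 1 library under the same assumption, 77 with the term and 33 to 62 without 1 library (33 without Saengmaek-san 20 replicate 1).

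Against vehicle, the 106 calls of Saengmaek-san became 187 with no filter, 161 with DESeq2, 0 with only the groups compared, 0 with that fit and the replicate block, 388 in the first 31, 376 with the term, 218 with the block over 57 libraries and 23 to 90 without 1 (53 and 42 without Saengmaek-san replicates 2 and 3, and 46, 38 and 23 without vehicle replicates 1, 2 and 3). For Guibi-tang 500 against vehicle, genes called numbered 762 and became 224 with only the groups compared, 71 with that fit and the replicate block, 1139 with the block over 57 libraries, 1963 in the first 31, 1725 with the term and 422 to 621 without 1 (452 without Guibi-tang replicate 2, and 422 and 498 without vehicle replicates 2 and 3). With only the groups compared, the replicate block matched numbers of vehicle with those of a decoction, although their library names are of different sets. The cause of these shifts was not tested. Of the 89 named genes, 67 lost the call at 500 with the 6 libraries alone, 43 with 18 libraries, 12 in the first 31, 13 with no filter and 1 with DESeq2; the block in all 57 libraries lost 0. Genes near 1 CPM rest on roughly 20 to 30 reads a library.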

Other observations

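From outside the gene lists, 19 further genes are given that were called at 500 in all 6 fits that leave out 1 library, 18 of them lower in Saengmaek-san and 1 higher. They were chosen after their values were seen. MCOLN3, a cation channel of endosomes and lysosomes, had 4.89, 4.17 and 4 CPM in Saengmaek-san, against 6.85, 7.51 and 6.89 CPM in Guibi-tang (log2 fold change -0.68 ± 0.116, adjusted p = 0.000191). GNPDA1, an enzyme that deaminates glucosamine phosphate and whose promoter held TCACGTG, had 45.4, 49.2 and 38.7 CPM in Saengmaek-san, against 72.1, 65.9 and 57.8 CPM in Guibi-tang (-0.53 ± 0.0746, adjusted p = 4.22e-06). HKDC1, a hexokinase-like enzyme, had 25.5, 25.5 and 19 CPM in Saengmaek-san, against 34.4, 36 and 29.6 CPM in Guibi-tang (-0.49 ± 0.0769, adjusted p = 4.62e-05). HS1BP3 (-0.58), STX3, a syntaxin (-0.44), and BRI3 (-0.44) were lower as well.

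ASS1, the arginine-making enzyme argininosuccinate synthase, had 9.15, 9.45 and 8.45 CPM in Saengmaek-san, against 14.2, 12.9 and 13.5 CPM in Guibi-tang (-0.56 ± 0.07, adjusted p = 2.98e-07). C1QTNF1, a secreted protein of the C1q and TNF family, had 8.74, 8.5 and 7.64 CPM in Saengmaek-san, against 14.1, 13.9 and 14.4 CPM in Guibi-tang (-0.75 ± 0.0775, adjusted p = 3.19e-09). ITGB4, an integrin chain of hemidesmosomes, was the higher gene of the 19, with 37.4, 33.4 and 32.7 CPM in Saengmaek-san, against 27.7, 28.6 and 27.7 CPM in Guibi-tang (0.32 ± 0.0594, adjusted p = 0.000623). BDKRB2, the bradykinin receptor, was lower in Saengmaek-san than in Guibi-tang (-0.33 ± 0.0603, adjusted p = 0.000558) and was above vehicle in both, by 0.36 in Saengmaek-san (adjusted p = 0.00053) and by 0.70 in Guibi-tang (adjusted p = 2.2e-11). CDCP1 (-0.51), FBXO32 (-0.55), NCR3LG1 (-0.48), FBXO10 (-0.42), PLIN2 (-0.40), EPHB2 (-0.37), GLIPR1 (-0.32), VAT1 (-0.30) and CDC25B (-0.21) were lower too.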
